A study of Mus musculus with 4 samples.

Results

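The IFIT, ISG15 and Mx group is a set of 10 interferon-stimulated mouse genes of antiviral families. RefSeq lists Mx1 and Mx2 among them as transcribed pseudogenes in the reference strain. The group was followed here in colon cancer cells given IFN-γ, hypoxia or both. The members were the 10 rows of the deposited count table whose NCBI gene ID belongs to Ifit1, Ifit2, Ifit3, Ifit3b, Isg15, Mx1, Mx2, Rsad2, Usp18 or Bst2, out of 27179 genes in the table. All 10 were found, and all 10 had enough counts to be tested. The cells were MC38, a mouse colon carcinoma line labelled as wild type (WT), and RNA-seq was made from 4 cultures. These were untreated cells in normoxia at 20% oxygen, untreated cells in hypoxia at 1.5% oxygen, IFN-γ treated cells in normoxia and IFN-γ treated cells in hypoxia. The IFN-γ was 5 ng/mL for 24 h, as the study's methods give it for most of its experiments. Each condition had 1 library, so variation between replicate cultures was not measured, and MC38 is a single established line in culture with no other cells of a tumor present.

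Cells make the proteins of these families after an interferon binds its receptor. Type I interferons act through factors that bind the interferon-stimulated response element (ISRE), IRF9 among them, and IFN-γ acts through JAK kinases and the gamma-activated sequence (GAS) and raises IRF1, which can also bind ISRE sites. IFIT proteins bind viral RNA, ISG15 is a ubiquitin-like protein that is joined to other proteins, USP18 removes ISG15 and restrains the type I interferon receptor, Mx proteins are dynamin-like GTPases, viperin (Rsad2) makes a chain-terminating nucleotide, and tetherin (Bst2) holds budding virus at the cell surface.

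The 4 libraries held between 34302971 and 34537939 counts on genes, and 3 counts, taken as the floor, corresponded to at most 0.0875 CPM, the count scaled to the size of the library. The stimuli left their marks on genes outside the group. Cd274, which encodes PD-L1, was 2.09 higher with IFN-γ on the log2 scale, and the hypoxia-responsive genes Car9 and Egln3 were 2.14 and 1.17 higher with hypoxia. Of 8 epithelial markers, Cdh1 and Cdx2 were at 0 in all 4 libraries, 4 stayed at or under 3 counts, and the list summed to between 85 and 113 counts, so the defining epithelial transcripts of colon were near absent from these cells. The 7 immune markers summed to between 17 and 37 counts with Itgam, Adgre1 and Siglech at 0, and the 6 endothelial and fibroblast markers to between 246 and 373 counts, with no marker at 0 in all 4 libraries. The part of such cells in the results was not tested.

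The 10 genes occupy 6 chromosomes in GRCm38.p6, the assembly that corresponds to the mm10 build named in the submitters' processing notes. The IFIT members form a cluster on chromosome 19, all on the plus strand. Ifit2 spans chr19:34550550-34576534, Ifit3 spans chr19:34583119-34588982, Ifit3b spans chr19:34607530-34613403 and Ifit1 spans chr19:34640889-34650009. Mx1 at chr16:97447035-97462906 and Mx2 at chr16:97536081-97560901 lie side by side on opposite strands. RefSeq lists both Mx genes as transcribed pseudogenes in the reference strain, while GENCODE lists Mx1 as protein coding and Mx2 as a polymorphic pseudogene. Isg15 spans chr4:156199424-156200818, Rsad2 spans chr12:26442743-26456452, Usp18 spans chr6:121245906-121270917 and Bst2 spans chr8:71534255-71537472.

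Copies and neighbours limited how well reads could be assigned. Of the 31-base words in Ifit3, 61.8% also occurred in Ifit3b, and 55.2% of the words of Ifit3b occurred in another gene, so the division of counts between Ifit3 and Ifit3b is uncertain. The shared part was 12.8% in Isg15, 10.5% in Ifit1, 8.12% in Mx1, 7.96% in Mx2 and 0.531% in Rsad2, and it was 0 in Ifit2, Usp18 and Bst2. In RefSeq, Ifit1bl1 overlaps Ifit1 and Ifit3b, the non-coding RNA Gm46878 overlaps Isg15, and Gm44148 overlaps Usp18, from the opposite strand in GENCODE. The libraries kept the strand, but whether the counting used it is not given in the sources used here.

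The promoter windows of RefSeq, which run from 250 bases before to 50 bases after the transcription start, were searched for an ISRE core, which is GAAA, any 2 bases and GAAA again, and a GAS core, TTCNNNGAA. Both strands were read, so an ISRE core on the other strand appears as TTTC, any 2 bases and TTTC. Windows were given for 7 of the 10 members, and the start meant here is the one the window uses. It is the first base of the gene span for Ifit1, Isg15, Rsad2 and Bst2, but lies 410 bases inside the span of Ifit3, 427 bases inside that of Ifit3b, and 144 and 538 bases inside that of Ifit2. An ISRE core lay upstream of the window's start in 6 of these 7 genes, compared with 2.98% of 32851 promoter windows in the mouse table. The stretches around these cores are printed because they are the sequence feature that most of the windows have in common. They run 5′ to 3′ on the strand of the gene with the ISRE cores in capitals, and overlapping cores make 1 longer run in Isg15 and Bst2.
Ifit1, chr19:34640755-34640843, plus strand: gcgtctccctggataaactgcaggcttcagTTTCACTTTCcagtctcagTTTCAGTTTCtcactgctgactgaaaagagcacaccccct
Ifit3, chr19:34583343-34583446, plus strand: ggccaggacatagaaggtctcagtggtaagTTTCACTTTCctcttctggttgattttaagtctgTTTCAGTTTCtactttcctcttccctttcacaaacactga
Ifit3b, chr19:34607739-34607842, plus strand: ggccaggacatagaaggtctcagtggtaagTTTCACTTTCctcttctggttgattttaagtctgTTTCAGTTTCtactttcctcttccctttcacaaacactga
Isg15, chr4:156200845-156200926, minus strand: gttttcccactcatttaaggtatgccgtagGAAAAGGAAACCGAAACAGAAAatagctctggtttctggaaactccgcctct
Rsad2, chr12:26456533-26456602, minus strand: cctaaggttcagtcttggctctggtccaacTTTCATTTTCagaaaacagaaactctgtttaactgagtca
Bst2, chr8:71537557-71537632, minus strand: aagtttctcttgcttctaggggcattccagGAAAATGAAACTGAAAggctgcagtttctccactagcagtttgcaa

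The stretches of Ifit3 and Ifit3b were the same in all 104 bases, with 0 differences, although they belong to separate starts. Isg15 carried 3 overlapping ISRE cores that begin 78, 72 and 66 bases before its start. Ifit1 carried 2, which begin 104 and 85 bases before its start. These 2 cores also lie upstream of Ifit1bl2, an IFIT relative on the opposite strand, since the starts of the 2 genes are 146 bases apart and face away from each other. Ifit2 had 2 annotated starts and no ISRE core in either window, and a GAS core was found 241 bases before 1 of them. Bst2 had the only other GAS core, which begins 136 bases before its start and overlaps the farther of its 2 ISRE cores. A GAS core was present in 8.30% of all windows. A match of letters is a description of the window and does not show that a factor binds there.

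**Figure D1:**
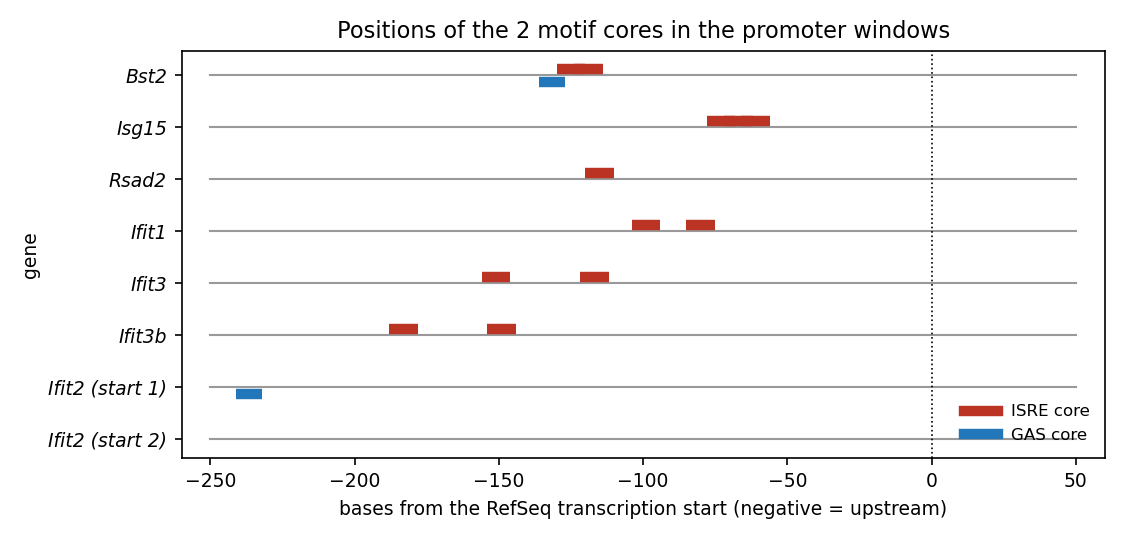
Positions of the ISRE core (red) and GAS core (blue) in the promoter windows of 7 genes, in bases from the RefSeq transcription start, with each horizontal line marking the window from 250 bases upstream to 50 bases downstream. ISRE cores lie upstream of the start in every gene shown but Ifit2, which appears with both of its starts.

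The group was expressed without any IFN-γ, and its members differed greatly in level. To compare genes with each other, levels are given as CPM per kilobase of exon. Tetherin was by far the most abundant member. Bst2 had 12248 counts in the control library in normoxia, 12807 in the control library in hypoxia, 21965 with IFN-γ in normoxia and 21702 with IFN-γ in hypoxia. Both IFN-γ libraries lay well above both control libraries, and oxygen made little difference within either. Per kilobase its level was 392, 410, 709 and 702 CPM in the same order. Among the 13122 tested genes with a known exon length, its percentile ran from 99.27 to 99.70. Bst2 alone supplied from 56.2% to 64.6% of the counts of the 10 genes.

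Isg15 and Rsad2 followed, at 65.9 and 19.5 CPM per kilobase in the control library in normoxia and 166 and 61.1 with IFN-γ in hypoxia. Usp18 lay between 7.66 and 14.4 CPM per kilobase over the 4 libraries. Ifit1 was between 4.97 and 10.5 and Ifit2 between 4.84 and 6.50, near the median of all tested genes, which was 5.85 in the control library in normoxia. The counting intervals of Ifit1 and Ifit2 overlapped in both control libraries and were separate in both IFN-γ libraries, where Ifit1 was the higher of the pair.

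The lowest measured levels were those of Ifit3, Ifit3b and the Mx genes. Ifit3 was at 0.927 CPM per kilobase in the control library in normoxia and at 5.12 with IFN-γ in hypoxia, which moved it from the 20.4th to the 46.3rd percentile of tested genes. The separate counting intervals of Ifit3b and Mx2 overlapped in each of the 4 libraries, which does not show that their levels were equal. With IFN-γ in hypoxia the overlap was slight, with a lower bound of 1.29 for Ifit3b and an upper bound of 1.31 for Mx2. Mx1 was the lowest member in each library, between 0.153 and 0.424 CPM per kilobase. These levels treat all exons of a gene as used, which is a limit for Mx2 and Usp18, whose longest transcript is much shorter than their exons combined.

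**Figure D2:**
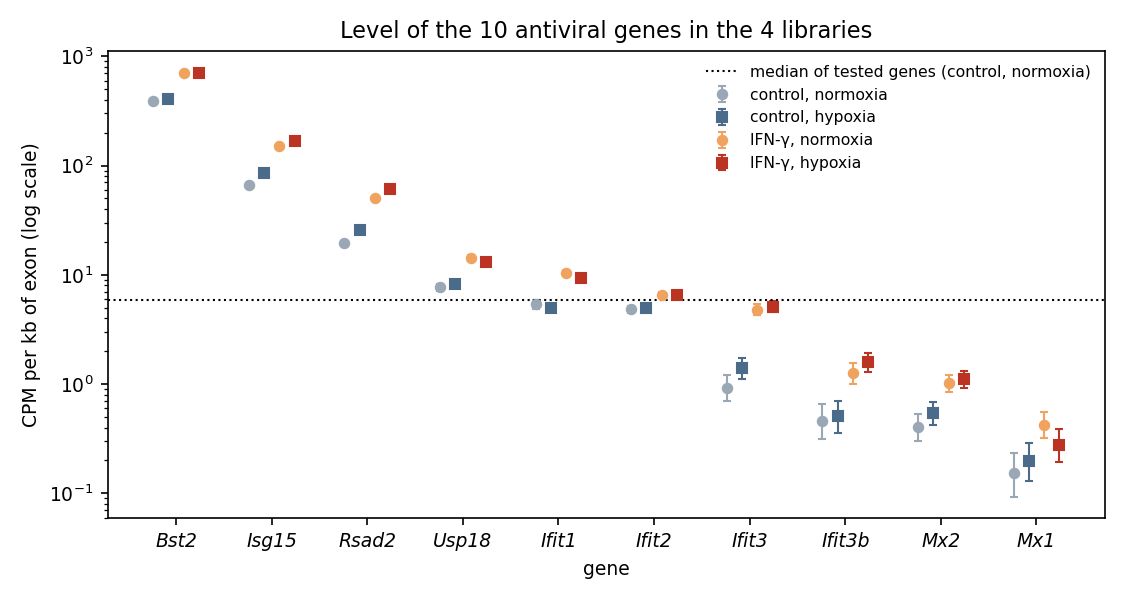
Level of each of the 10 genes in the 4 libraries, in CPM per kilobase of exon on a log axis, with 95% counting intervals and a dotted line at the median of tested genes in the control library in normoxia. Bst2 stands at 392 to 709 and Mx1 at 0.153 to 0.424, and for every gene both IFN-γ libraries lie above both control libraries.

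The first comparison asks how the group responded to IFN-γ. In edgeR's quasi-likelihood test with oxygen and IFN-γ as terms and Benjamini-Hochberg adjustment over all 13580 tested genes, 9 of the 10 members rose and 0 fell at an adjusted p of 0.05. Over all tested genes, 4.76% were called higher and 1.10% lower. The median log2 change of the 10 genes was 1.03, while that of all tested genes was -0.01. The summed counts of the group went from 18951 to 37162 with IFN-γ in normoxia and from 21032 to 38636 in hypoxia. No condition has a second library, so the error comes from how far counts depart from the sum of the 2 effects, with 1 residual degree of freedom per gene. In this fit the error was shared wholly across genes as a function of their level, which makes the adjusted p-values very small. The other additive edgeR fits (DESeq2 size factors, total counts, no filter, at least 10 counts in every library) kept part of each gene's own spread and made the same 9 calls with larger p-values. With 1 library left out and oxygen taken out of the model, 5 members were called without the IFN-γ library in normoxia and 0 without any other library, while the log2 change of Ifit3 stayed between 1.83 and 2.42 and that of Bst2 between 0.78 and 0.85. In bulk RNA, fewer responding cells and less RNA per cell cannot be told apart.

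Among the IFIT genes, whose products bind viral RNA, the response ranged widely. Ifit3 had 56 counts in the control library in normoxia, 84 in the control library in hypoxia, 287 with IFN-γ in normoxia and 306 with IFN-γ in hypoxia. Every IFN-γ library was thus several times above every control library. Its log2 change was 2.10 ± 0.178 (SE), or 4.30-fold, with an adjusted p of 6.16e-30 in edgeR, the largest change in the group. Ifit3 ranked 105th in size of change among the 647 genes that rose with IFN-γ.

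Ifit3b, the close copy of Ifit3, had 32, 35, 86 and 108 counts in the same order of libraries. It also stood clearly higher in both IFN-γ libraries, by 1.54 ± 0.288 (adjusted p = 3.48e-06, edgeR), but its adjusted p was 0.126 by DESeq2's Wald test. The part that Ifit3 took of the counts of both genes was 63.6% (95% exact interval 52.7 to 73.6) in the control library in normoxia and 76.9% (72.3 to 81.1) with IFN-γ in normoxia, and it was 70.6% and 73.9% in the hypoxic libraries. When the counts of both genes were added together, the log2 change with IFN-γ was 1.94 ± 0.154, so the rise of the pair did not rest on how reads were divided between them.

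Ifit1 had 492 and 456 counts in the control libraries in normoxia and hypoxia, and 955 and 858 in the IFN-γ libraries. Its counts with IFN-γ were close to double, a log2 change of 0.95 ± 0.0942 (adjusted p = 7.54e-22, edgeR). Ifit2 had 658, 671, 875 and 871 counts, an increase that was small but present in both oxygen conditions. Its log2 change of 0.41 ± 0.0891, or 1.33-fold (adjusted p = 0.000157, edgeR), was the smallest in the group and was no longer past 0.05 by DESeq2's Wald test or when oxygen was left out of the model. Ifit3 exceeded Ifit2 by 1.70 in log2 change (95% interval 1.31 to 2.09) and Ifit1 exceeded it by 0.54 (0.29 to 0.79), although the 3 genes are neighbours. Of the 7 members with a promoter window, Ifit2 was the one with no ISRE core in its windows. Those windows use starts 144 and 538 bases inside the gene span, and sequence farther upstream was not searched. Whether the lack of a core there bears on the size of the change of Ifit2 was not tested.

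The transcripts of the ISG15 branch that were tested all rose with IFN-γ. Isg15 itself had 1725 counts in the control library in normoxia, 2214 in the control library in hypoxia, 3897 with IFN-γ in normoxia and 4306 with IFN-γ in hypoxia. Hypoxia was above normoxia in each treatment, and both IFN-γ libraries were far above both control libraries. Its log2 change with IFN-γ was 1.08 ± 0.0654, or 2.11-fold (adjusted p = 1.98e-58, edgeR). Usp18, the protease that removes ISG15, had 740, 802, 1374 and 1244 counts and a log2 change of 0.78 ± 0.0819 (adjusted p = 2.18e-19, edgeR). The increase of Usp18 was smaller than that of Isg15 by 0.30 (95% interval 0.10 to 0.51).

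The enzymes that join ISG15 to its targets were looked at beside it. Differences between the changes of 2 genes are given as descriptions, since the pairs were picked after their values were seen. All 4 that were tested rose with IFN-γ, and the ligase Arih1 was not analysed here. Uba7, the activating enzyme, had 247, 392, 1334 and 1652 counts, and its log2 change of 2.25 exceeded that of Isg15 by 1.17 (0.95 to 1.39). Ube2l6, the conjugating enzyme, had 1182, 1223, 5028 and 5178 counts, and its change of 2.10 exceeded that of Isg15 by 1.02 (0.84 to 1.20). Thus the activating and conjugating enzymes increased more than 4-fold while the modifier increased about 2-fold. The ligase Herc6 changed by 1.15, which did not differ from Isg15 within its interval (-0.12 to 0.26), and Trim25 changed by 0.21.

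Rsad2, which encodes viperin, had 2929 and 3869 counts in the control libraries in normoxia and hypoxia and 7542 and 9068 in the IFN-γ libraries. IFN-γ raised it in both oxygen conditions, and hypoxia was above normoxia in both treatments. Its log2 change with IFN-γ was 1.31 ± 0.0587, or 2.48-fold, with an adjusted p of 7.52e-106 in this edgeR fit and of 3.17e-12 in edgeR with no filter. Cmpk2, a neighbouring gene for a nucleotide kinase that acts in the same chemistry as viperin, had 1189, 1416, 3742 and 4164 counts, and its log2 change of 1.62 was larger by 0.31 (0.13 to 0.49).

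The Mx genes were measured from few reads. Mx2 had 51, 68, 126 and 137 counts in the 4 libraries, and both IFN-γ libraries were above both control libraries. Its log2 change was 1.16 ± 0.230 (adjusted p = 1.69e-05, edgeR), but adjusted p was 0.237 by DESeq2's Wald test and 0.0971 without oxygen in the model. Mx1 had 20, 26, 55 and 36 counts, and its log2 change of 0.98 ± 0.387 was the only one of the 10 that missed the threshold (adjusted p = 0.143, edgeR). The interval of the difference between the Mx genes ran from -0.70 to 1.06, so the counts do not show whether they responded alike.

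Bst2, with its high basal level, had a log2 change of 0.82 ± 0.0504, or 1.76-fold (adjusted p = 4.14e-56, edgeR). That was less than Isg15 by 0.26 (0.10 to 0.43), but because Bst2 was so abundant it gained more counts than any other member. Its share of the group's counts was 64.6% in the control library in normoxia and 60.9% in that in hypoxia. With IFN-γ it was 59.1% in normoxia and 56.2% in hypoxia. Ordered by size of change, neighbouring members mostly could not be told apart. The step from Usp18 to Ifit2 was the only one whose interval left out 0, at 0.37 (0.13 to 0.61). These intervals take the genes as independent and have no replicate cultures behind them.

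In each pair of libraries alone, all 10 members had more counts with IFN-γ than without. In normoxia the counting interval was above 0 on the log2 scale for all 10, as for 18.1% of tested genes, and in hypoxia for 9, as for 17.0%, with Mx1 the exception. In normoxia 6 of the 10 were at least 2-fold higher, where 2.92% of tested genes were. These were Ifit3, Ifit3b, Isg15, Mx1, Mx2 and Rsad2. In hypoxia 4 were, where 2.82% of tested genes were, and Isg15 and Mx1 were not among them. With 5 counts added in place of 0.5, Mx2 also fell short and 3 remained. Ifit3 had the largest ratio in both, 5.14-fold in normoxia and 3.66-fold in hypoxia. A pair of single libraries has no replicate check, and its interval covers counting error only.

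**Figure D3:**
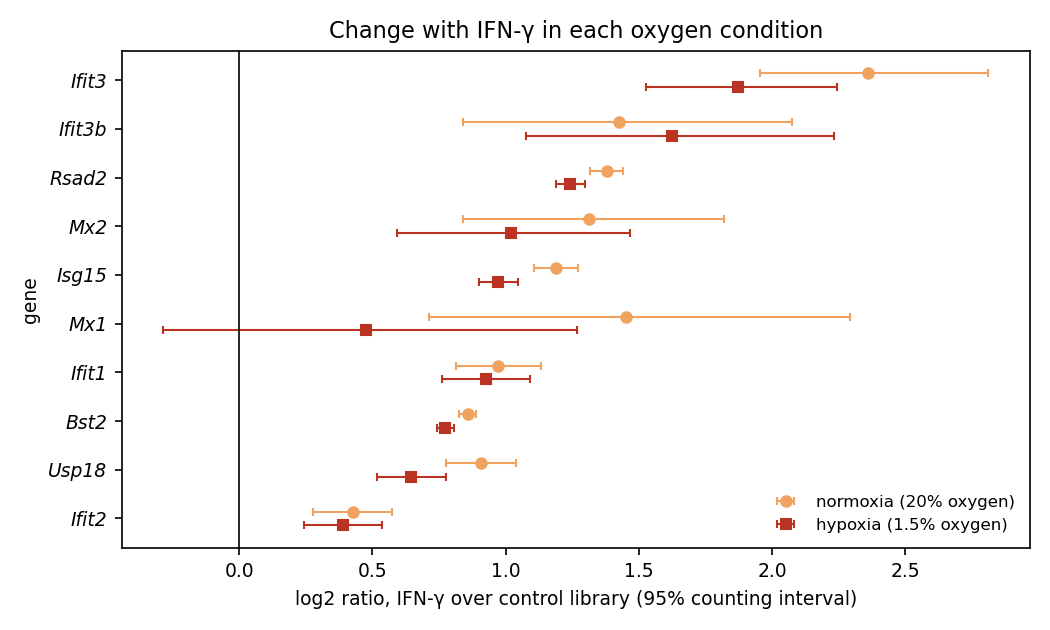
The log2 ratio of the IFN-γ library over the control library for each gene, in normoxia (circles) and hypoxia (squares), with 95% counting intervals. All 20 ratios are above 0, the interval of Mx1 in hypoxia reaches below 0, and 9 of the 10 genes have the smaller ratio in hypoxia. The share of all tested genes with the smaller ratio in hypoxia was not counted.

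Other interferon-stimulated families set the scale for these changes. Of 8 oligoadenylate synthetase genes, which encode sensors of double-stranded RNA, 6 rose with IFN-γ and 0 fell, with a median log2 change of 0.94 that was close to that of the 10 genes. The guanylate-binding proteins, GTPases that attack intracellular pathogens, changed far more. All 9 that could be tested rose, with log2 changes from 3.24 to 5.67 and a median of 4.80. Every one of them was thus above Ifit3.

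Genes of the signalling pathway were also followed. Of 12 tested, 6 rose with IFN-γ and 1 fell, where 4.76% of all tested genes rose and 1.10% fell. The calls on genes outside the group rest on 1 edgeR fit, since the alternative fits are given for the members only. Irf1 rose by 2.43 on the log2 scale, from 3770 to 20118 counts in normoxia, while Stat2 rose by 1.51, Irf7 by 1.37 and Irf9 by 0.82. Socs1, a feedback inhibitor of JAK kinases, also rose, and the receptor chain Ifngr1 fell by 0.25 (adjusted p = 0.0308, edgeR). Genes for type I and type III interferons were almost silent. Of 20 such genes, 16 were at 0 in all 4 libraries and 19 stayed at or under 3 counts, and Ifnb1 had 2, 0, 2 and 2 counts. The remaining gene, Ifnz, had 17 counts at most, and the counts of the 20 genes summed to between 10 and 17 per library.

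**Figure D4:**
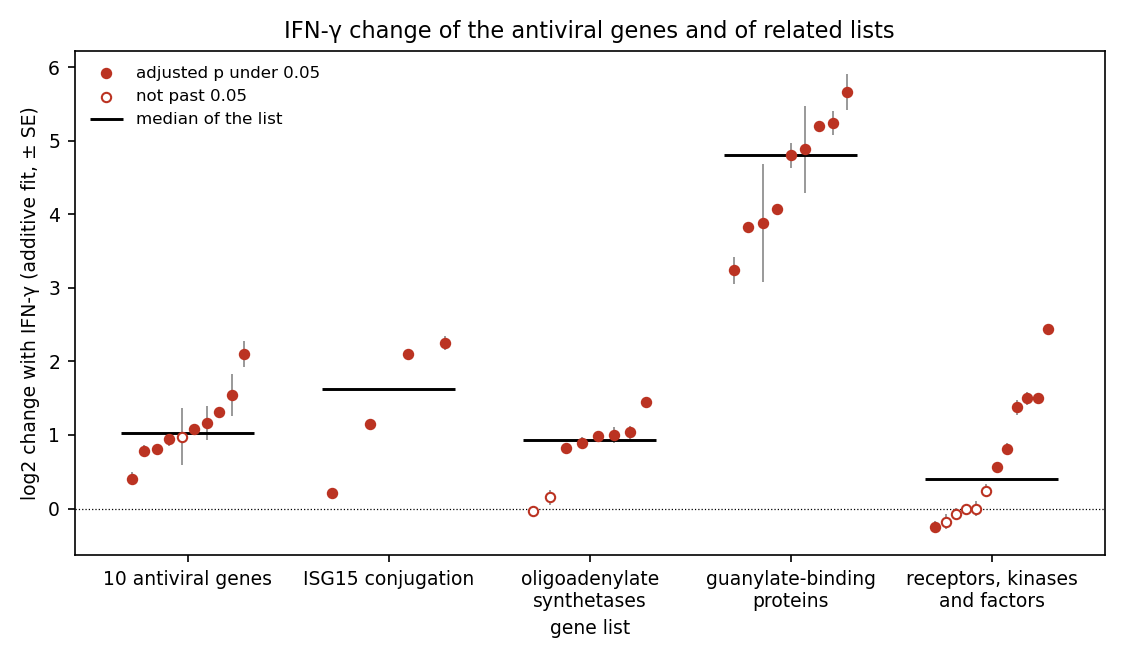
The log2 change with IFN-γ in the additive edgeR fit, with its SE, for each tested gene of 5 lists, where filled points had an adjusted p under 0.05 and black bars mark each list's median. The 10 antiviral genes (median 1.03) lie near the oligoadenylate synthetases (0.94) and below all guanylate-binding proteins (4.80).

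Hypoxia raised 2 members, Rsad2 and Isg15, and lowered 0 in the same edgeR test. Of all tested genes, 8.21% were called higher and 6.83% lower with hypoxia. With 1 library left out and IFN-γ taken out of the model, the log2 change with hypoxia ran from -0.44 to 1.15 for Rsad2. For Isg15 it ran from -0.35 to 0.93. The oxygen arms of those fits differ in their share of IFN-γ libraries, so they cannot judge the hypoxia change. The median log2 change of the group was 0.13. Rsad2 had the largest change at 0.33 ± 0.0580, or 1.26-fold (adjusted p = 4.67e-07, edgeR), and Isg15 changed by 0.25 ± 0.0649, or 1.19-fold (adjusted p = 0.00214, edgeR). The call on Isg15 was lost with DESeq2's Wald test (adjusted p = 0.125), and both calls were lost when IFN-γ was left out of the model. That model counts the larger IFN-γ effect as error, so its loss of the calls does not judge them.

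The other 8 members gave no call with hypoxia. The log2 changes of Ifit3b, Ifit3 and Mx2 were 0.26, 0.25 and 0.24, of similar size to that of Isg15 but measured from far fewer counts. Bst2 and Ifit2 were at 0.03 and 0.01, Usp18 at -0.02, Ifit1 at -0.13 and Mx1 at -0.21. In the ISG15 pathway, Uba7 rose with hypoxia by 0.44 (adjusted p = 3.25e-05, edgeR) and Herc6 by 0.20 (adjusted p = 0.0317, edgeR). Among the signalling genes, Jak1, Jak2, Stat2, Irf1 and Ifngr1 rose with hypoxia and 0 fell.

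Without IFN-γ, 9 of the 10 members had a higher ratio than 1 in hypoxia, and the counting interval was above 0 on the log2 scale for 4 of them, namely Ifit3, Isg15, Rsad2 and Bst2. Of all tested genes, 23.5% had such an interval, and the share with a ratio above 1 was not counted. With IFN-γ, the interval was above 0 for Isg15 and Rsad2, where 22.0% of tested genes had such an interval, and below 0 for Ifit1 and Usp18, where 23.8% had. No member changed 2-fold with hypoxia in either pair, compared with 2.36% of tested genes higher and 1.18% lower without IFN-γ, and 2.44% and 1.02% with it. Rsad2 was 1.32-fold higher in hypoxia without IFN-γ and 1.20-fold higher with it, and Isg15 was 1.29-fold and 1.11-fold higher.

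**Figure D5:**
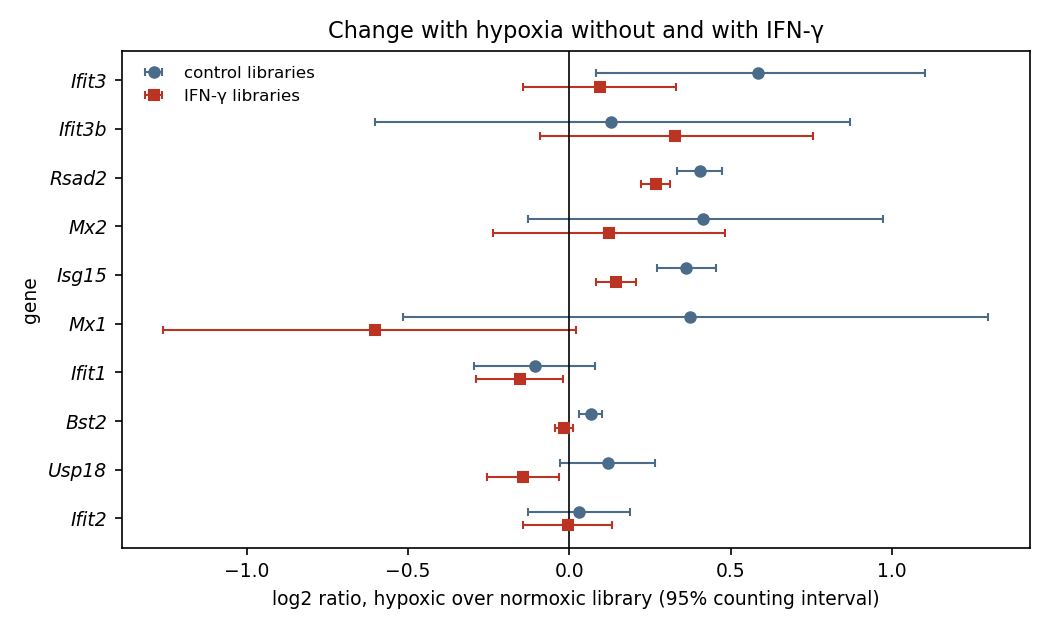
The log2 ratio of the hypoxic over the normoxic library for each gene, without IFN-γ (circles) and with IFN-γ (squares), with 95% counting intervals. Only Rsad2 and Isg15 have intervals above 0 in both pairs, while the ratios of Ifit3, Ifit3b and Mx2 are also above 0 in both. Usp18 lies at 0.12 without and -0.14 with IFN-γ.

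The response to IFN-γ was next compared between oxygen conditions. The difference between the log2 change in hypoxia and that in normoxia was negative in 9 of the 10 genes, with a median of -0.18, and all 10 share the same 4 libraries. The median over all tested genes was -0.02, and the share of them with a negative difference was not counted. The counting interval of the difference was below 0 for Isg15, Rsad2, Usp18 and Bst2, and above 0 for no member. Over all tested genes, 17.0% had an interval below 0 and 13.3% one above. Such an interval narrows as counts grow, and these shares were not matched on counts, so they do not show an excess among the members. The difference was -0.22 for Isg15 (95% interval -0.33 to -0.11), -0.14 for Rsad2 (-0.22 to -0.05), -0.26 for Usp18 (-0.44 to -0.08) and -0.08 for Bst2 (-0.13 to -0.04). For Isg15 and Rsad2, the hypoxic library had more counts than the normoxic one both with and without IFN-γ, and the gap on the log2 scale was the smaller with IFN-γ. These intervals hold counting error only, and without replicate cultures the difference was not tested.

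The members with few counts gave wide intervals. The difference was -0.49 for Ifit3 (-1.03 to 0.05), -0.98 for Mx1 (-2.00 to 0.05) and 0.20 for Ifit3b, the only positive value, with an interval that included 0. For Ifit1 and Ifit2 it was -0.05 and -0.04. Ifit1bl2, which starts 146 bases from Ifit1 on the opposite strand, moved otherwise. It had 21 and 22 counts in the control libraries, 58 with IFN-γ in normoxia and 112 with IFN-γ in hypoxia. The part of Ifit1 in the counts of both genes was 94.3% (95% exact interval 92.7 to 95.6) with IFN-γ in normoxia and 88.5% (86.3 to 90.4) with IFN-γ in hypoxia, while it was 95.9% and 95.4% in the control libraries. This gene was singled out after its values were seen, and 9.16% of the words of Ifit1 occur in it.

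Across the 4 libraries, Isg15 and Mx2 had profiles closest to the median profile of the group, and Ifit3 and Ifit2 the most distant. The Euclidean distance between centred log2 CPM profiles was 0.123 for Isg15, 0.166 for Mx2, 0.674 for Ifit2 and 1.09 for Ifit3. Among 11303 other genes that averaged 50 counts or more, the 5 nearest to the median profile were Adamts6, Trim56, Dpf3, AW209491 and H2-T22, at distances from 0.0700 to 0.175. H2-T22, a class Ib histocompatibility gene, had 2435, 2729, 5704 and 5863 counts, and Trim56, which encodes a ubiquitin ligase, had 261, 337, 584 and 645. Ranking by Pearson correlation over the same 4 libraries gave 5 different genes (C1s1, Arl5b, Mlkl, Tbk1 and BC023105), so the list depends on the measure of likeness.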

How the data were processed

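Poly-A RNA of MC38 cells was made into strand-specific (dUTP) libraries and sequenced from both ends on a DNBSEQ instrument, with 1 library per condition. Reads were aligned with HISAT2, and the submitters' processing notes name featureCounts and mm10. The authors deposited whole-number counts per gene for the 4 libraries, neither normalized nor filtered. The counting settings, the annotation and the treatment of reads that match several genes are not given in the sources used here. Symbols came from a RefSeq table (GRCm38.p6), which matched 25275 of 27179 gene IDs, and exon lengths and 31-base words from GENCODE transcripts of the same assembly.

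Changes were tested by quasi-likelihood in edgeR 4.0.16 under R 4.3.3, with TMM normalization, the default low-count filter (minimum count 10), oxygen and IFN-γ as additive terms, 1 residual degree of freedom per gene, a prior degree of freedom estimated as infinite (from 16.5 to 23.2 in the other additive edgeR fits), and Benjamini-Hochberg adjustment at 0.05. The common dispersion corresponded to a coefficient of variation of 4.71%. Ratios of single libraries used TMM-normalized CPM with 0.5 counts added and exact conditional (Clopper-Pearson) 95% intervals. Intervals between genes came from the SEs of the fit, with the genes taken as independent although they share the same 4 libraries. All counting intervals and the floor of 3 counts cover counting error only, and reads carried no molecular identifiers. Promoter windows came from RefSeq.

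One gene of the signalling list is not reported here. The members and all gene lists were chosen with earlier results of these data known. The genes named were the 10 members, members of the lists, and the 5 genes nearest to the median profile by each measure among those averaging 50 counts or more. Alternatives were DESeq2 size factors, total counts, no filter, at least 10 counts in every library, DESeq2's Wald test (DESeq2 1.42.0), models without the other stimulus, each library left out, 5 counts added, and the longest transcript as length. Each column of the table was matched to 1 sample.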

Additional observations from a re-analysis of the deposited data

Results flagged for a closer look

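In 4 of the 10 genes the hypoxia change had opposite signs without and with IFN-γ. Each side is 1 pair of libraries, and none of these differences was tested. The share of all tested genes with opposite signs was not counted, so the 4 genes are given as a description only. For Usp18 the log2 ratio of hypoxia over normoxia was 0.12 (95% counting interval -0.03 to 0.26) without IFN-γ and -0.14 (-0.25 to -0.03) with it, a difference of -0.26. For Bst2 the values were 0.07 (0.03 to 0.10) and -0.02 (-0.04 to 0.01), a difference of -0.0830. Mx1, with 20 to 55 counts per library, was at 0.37 and -0.60, a difference of -0.98, and both intervals included 0. Ifit2 was at 0.03 and -0.01, a difference of -0.0360, again with both intervals including 0, and with DESeq2 size factors its values were 0.0216 and 0.00167, of the same sign, which leaves 3 genes.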

How the results depend on the processing

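With DESeq2 size factors, total counts, no filter or at least 10 counts in every library, the number of members called stayed at 9 for IFN-γ and 2 for hypoxia. For IFN-γ, DESeq2's Wald test called 6 and a model without oxygen 7, and an added log2 minimum of 1 left 5. For hypoxia, DESeq2's Wald test called 1, and the model without IFN-γ and the log2 minimum of 1 each called 0. The model without IFN-γ counts the IFN-γ effect as error, so it cannot judge the hypoxia calls.

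Leaving out 1 library also took the other stimulus out of the model, and the arm with a single library was assumed to vary like the other. For IFN-γ this left 0 to 5 calls, with 5 without the IFN-γ library in normoxia and 0 without any other library, and for hypoxia 0 in each case. The log2 changes with IFN-γ kept their sign in all 10 genes, with 0.90 to 1.26 for Isg15 and 1.11 to 1.52 for Rsad2. By construction, the oxygen arms then differ in their share of IFN-γ libraries, and the IFN-γ effect counts as error. These fits therefore cannot judge the hypoxia calls, and the sign of the hypoxia change turned in each gene. The log2 change with hypoxia ran over -0.67 to 0.43 for Ifit1, -0.20 to 0.23 for Ifit2, -1.04 to 1.81 for Ifit3, -0.76 to 1.17 for Ifit3b and -0.35 to 0.93 for Isg15. It ran over -0.83 to 0.63 for Mx1, -0.39 to 1.01 for Mx2, -0.44 to 1.15 for Rsad2, -0.43 to 0.47 for Usp18 and -0.42 to 0.50 for Bst2. Without the control library in normoxia the turned values were -0.19 for Ifit2, -0.56 for Ifit3, -0.27 for Ifit3b, -0.26 for Isg15, -0.30 for Mx2, -0.23 for Rsad2 and -0.35 for Bst2, and without the control library in hypoxia 0.25 for Ifit1 and 0.24 for Usp18. No paired analysis was possible because each condition has 1 library and so no replicate numbers to pair, and the additive model already compares IFN-γ with control at the same oxygen.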
